A study of Homo sapiens with 32 samples.

Results

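A set of 10 genes of the integrated stress response was followed in 4 endometrial cancer cell lines treated with SM08502, paclitaxel or both. The genes were named by symbol and not picked by a threshold, but with earlier results of these data known. They were ATF4, DDIT3, TRIB3, PPP1R15A, SESN2, ASNS, PSAT1, PHGDH, CHAC1 and SLC7A11. Counts set beside the share of all genes therefore describe this set and do not test it. They are 10 of the 35238 genes in the deposited table, and all 10 were among the 17011 genes that passed the filter on low values.

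In the integrated stress response, kinases that sense amino acid shortage, unfolded protein in the endoplasmic reticulum, viral RNA or lack of haem phosphorylate the translation factor eIF2alpha. Most translation then slows, while the mRNA of the transcription factor ATF4 is translated more, through short reading frames upstream of its own. ATF4 then drives genes for amino acid synthesis and uptake, for glutathione metabolism and for the feedback that ends the response, so that in RNA data the pathway is read mostly from its targets.

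The lines were Ishikawa, labelled as CTNNB1 wild type, and Ishikawa-S33Y, SNGM and HEC265, labelled as CTNNB1-mutated. CTNNB1 encodes beta-catenin, and Ishikawa-S33Y is by its name an Ishikawa derivative with the S33Y change. Whether it is 1 clone is not given in the sources used here. SM08502 inhibits CDC-like kinases, which phosphorylate splicing factors, and paclitaxel is a taxane that stabilises microtubules. Cells had 24 h of exposure, each line at its own concentration for 50% loss of viability. Ishikawa received 80 nM SM08502 and 11 nM paclitaxel, Ishikawa-S33Y 85 nM and 6 nM, SNGM 350.7 nM and 11.7 nM, and HEC265 149 nM and 5.6 nM. The combination had both drugs at these doses, and the vehicle was 0.1% DMSO. Since dose, genotype and line go together, as does RNA input for Ishikawa, they cannot be told apart in any difference between lines. Each of the 16 groups had 2 libraries, from ribosome-depleted RNA of cells plated in duplicate, with 350 ng of RNA put into Ishikawa libraries and 500 ng into the others. Nothing says that the duplicates were separate experiments, so p-values measure only the spread between these samples, which may be technical. That spread was pooled for each gene over all 16 groups. A standard error (SE) or p-value therefore does not give the spread of the compared libraries alone.

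Of the 32 libraries, 30 held 13.0 to 34.1 M counted reads (M stands for 1000000). Replicate 2 of the combination was shallow in Ishikawa-S33Y, with 2.99 M reads, and in SNGM, with 1.61 M, so that 3 reads stand for 1.00 and 1.87 CPM (reads per 1000000 counted) there. Replicates were not copies of each other: a chi-square of their counts per degree of freedom was 2.38 to 96.5 over the 16 pairs. The epithelial markers EPCAM, CDH1, KRT8, KRT18 and KRT19 were detected at 60.5 CPM or more in every library, and the Mullerian factor PAX8 at 64.4 or more. The oestrogen receptor gene ESR1 was at 0 to 0.315 CPM in HEC265. Of the leukocyte markers, PTPRC stayed at or under 2.38 CPM and CD3E at or under 0.444 CPM, while CD68, which lysosomes of many cells also carry, reached 50.4 CPM. Of the stromal markers, DCN and COL3A1 stayed at or under 3.73 and 4.69 CPM, and COL1A1 was at 707 to 1158 CPM in Ishikawa-S33Y. The summed leukocyte list was 9.27 to 9.88 CPM on vehicle and 35.3 to 39.6 CPM with SM08502 in HEC265, and 18.2 to 21.5 against 34.9 to 37.2 CPM in SNGM. Given the limits above for PTPRC and CD3E, these sums were mostly CD68. The summed stromal list was 1135 to 1163 CPM on vehicle and 820 to 896 CPM with SM08502 in Ishikawa-S33Y, and 111 to 161 against 29.3 to 70.2 CPM in Ishikawa. Given the limits for DCN and COL3A1, these were mostly COL1A1. The summed epithelial list in Ishikawa-S33Y was 2944 to 2970 CPM on vehicle, 1439 to 1629 CPM with SM08502 and 1174 to 1236 CPM with the combination. Its summed Mullerian and endometrial list was 535 to 583 CPM on vehicle and 401 to 431 CPM with SM08502. In SNGM the epithelial sum was 702 to 781 CPM on vehicle and 785 to 791 CPM with SM08502, and in HEC265 2462 to 2464 against 2133 to 2264 CPM. The part of these shifts in the results below was not tested. In bulk RNA, fewer cells that express a gene and less RNA per cell cannot be told apart.

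Of the 10 genes, 2 carry, in the RefSeq window from 250 bases before to 50 after a start site, the core of the C/EBP-ATF response element, the motif through which ATF4 and its C/EBP partners are known to act on amino acid genes. The motif searched was TGATGNAA on both strands. It was found in 2 of the 14 windows, which belong to 9 of the 10 genes, and in 1270 of all 35116 windows, or 3.62%. Both matches, in ASNS and CHAC1, are shown, and capitals mark the motif. The ASNS stretch is at chr7:97872439-97872506 on the minus strand of GRCh38.p14, with the motif starting 68 bases before the start site of 1 of its 2 windows. The CHAC1 stretch is at chr15:40953232-40953299 on the plus strand, with the motif as its reverse complement starting 209 bases before the start site. Both are written 5′ to 3′ in the direction of the gene.
ASNS: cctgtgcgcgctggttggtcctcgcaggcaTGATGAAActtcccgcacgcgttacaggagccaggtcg
CHAC1: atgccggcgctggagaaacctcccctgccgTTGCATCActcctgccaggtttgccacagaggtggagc
A match describes these letters and was not tested as a binding site. The ER stress element was in none of the 9 genes' windows and in 0.0769% of all windows. SLC7A11 had no window in the table.

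With SM08502 in SNGM, 8 of the 10 genes rose and none fell, against 3.8% of all tested genes called higher and 4.06% lower in that line, and the median log2 change of the 10 was 0.82 against 0 for all genes. In Ishikawa-S33Y, 5 of 10 rose and none fell, against 18.5% of all genes higher and 10.6% lower, with a median of 0.46 against 0.11. In HEC265, 3 of 10 fell and none rose, against 5.39% of all genes called lower and 9.27% higher, with a median of -0.06 against 0.07. In Ishikawa, none of the 10 passed the test, against 15.2% of all genes called in either direction, 6.5% higher and 8.68% lower, with a median of -0.09 against 0.00. Of the 10, 2 had an unadjusted p under 0.05 in Ishikawa. The share of all genes at this unadjusted cut is not given here or below. Shares of genes called use the adjusted p and are not its counterpart. A gene was called where limma gave a Benjamini-Hochberg adjusted p under 0.05 over all 17011 genes, and changes are differences of log2(CPM + 1), which understate the change of low genes. Fitted on the libraries of its own line alone, SNGM kept 2 calls, ASNS and SLC7A11. In such fits HEC265 had 1 gene higher and 5 lower, and Ishikawa-S33Y had 6 higher. The share of all genes called in these fits is not given here. Without replicate 2 of SM08502 in HEC265, ASNS was the 1 gene called lower there. TMM scaling moved the median of all genes in Ishikawa-S33Y from 0.11 to -0.01, and ATF4, ASNS, TRIB3 and PHGDH were still called higher.

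**Figure D1:**
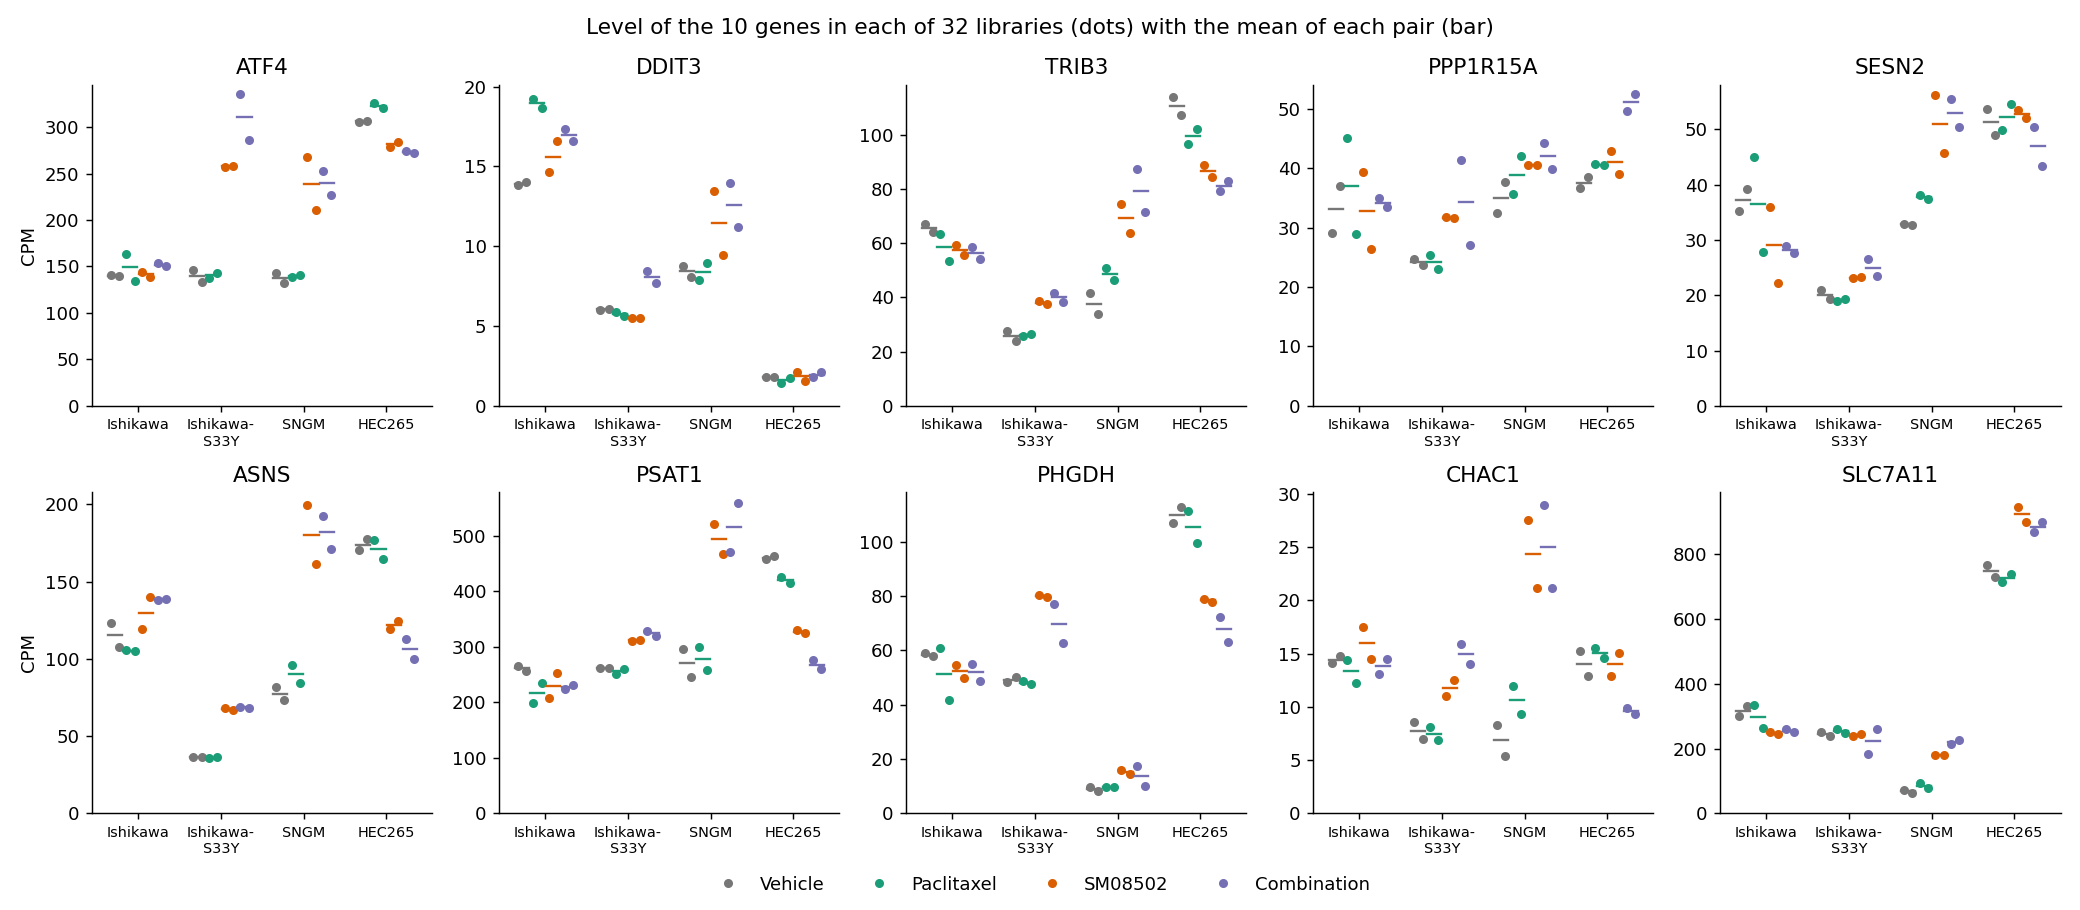
CPM (linear axis from 0, a separate scale for each gene) of the 10 genes in the 32 libraries; dots are libraries, bars are means of the 2 replicates, and colours are vehicle, paclitaxel, SM08502 and combination. ATF4, ASNS, TRIB3 and CHAC1 are higher with SM08502 and the combination than on vehicle in Ishikawa-S33Y and SNGM, and ASNS, TRIB3 and PSAT1 are lower in HEC265.

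ATF4, on chromosome 22 at 39520559 to 39522686 (RefSeq positions on GRCh38.p14 here and for the other genes), is the central transcription factor of the pathway. On vehicle it was at 306 and 307 CPM in the 2 HEC265 libraries, 141 and 139.9 in Ishikawa, 146 and 134 in Ishikawa-S33Y and 143 and 133 in SNGM. HEC265 therefore started highest, by 1.12 on the log2 scale over Ishikawa (limma adjusted p = 7.63e-09), while the other 3 lines lay within 0.03 of each other and were not called different. With SM08502, ATF4 mRNA was at 257 and 258 CPM in Ishikawa-S33Y and 268 and 211 in SNGM, clear of every vehicle library of the same line. The increases were 0.88 (SE 0.11, limma adjusted p = 5.87e-06) and 0.78 (SE 0.11, limma adjusted p = 8.98e-05). In Ishikawa it was at 144 and 139 CPM, overlapping the vehicle libraries, with a log2 change of 0.01 (limma adjusted p = 0.958). In HEC265 it was at 279 and 284 CPM, under both vehicle libraries, but the difference of -0.12 (limma adjusted p = 0.558) was not called. Even so, the SM08502 libraries of Ishikawa-S33Y and SNGM held less ATF4 mRNA than the vehicle libraries of HEC265. With the combination, Ishikawa-S33Y reached 335 and 286 CPM, the second of these from the shallow library.

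DDIT3 encodes CHOP, a factor downstream of ATF4 known for its role in cell death under lasting stress. It lies on chromosome 12 at 57516588 to 57520517 and overlaps MARS1, so reads could not be assigned with certainty where counting ignored strand, which is not given in the sources used here. Its order among lines on vehicle was not that of ATF4: it was at 13.8 and 14.0 CPM in Ishikawa, 8.78 and 8.06 in SNGM, 6.01 and 6.08 in Ishikawa-S33Y and 1.82 and 1.78 in HEC265. Each step down in this order was called, the smallest being SNGM over Ishikawa-S33Y by 0.42 (limma adjusted p = 0.0199). HEC265, with the highest ATF4, thus had the lowest DDIT3, at 35 to 47 reads in each of its 8 libraries. Under quantile normalization the gap between HEC265 and Ishikawa-S33Y was no longer called (limma adjusted p = 0.0927). With SM08502, DDIT3 passed the test in no line. In SNGM it was at 13.5 and 9.43 CPM, a log2 difference of 0.38 (limma adjusted p = 0.132), and in Ishikawa-S33Y at 5.48 and 5.53, a difference of -0.11 (limma adjusted p = 0.612). With the combination it rose in SNGM, to 13.9 and 11.2 CPM and by 0.52 (limma adjusted p = 0.0194). This rise was not called with TMM scaling, in the fit on SNGM alone, without either SNGM vehicle library, or without replicate 1 of the combination, which leaves the shallow library (log2 difference 0.37). In Ishikawa-S33Y the combination libraries held 8.48 and 7.69 CPM, above all 6 other libraries of that line, with a log2 difference of 0.37 (limma adjusted p = 0.0549).

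TRIB3, a pseudokinase that binds ATF4 and damps the response, lies on chromosome 20 at 380760 to 397559. It changed with SM08502 in 3 lines. With the drug it rose in Ishikawa-S33Y, from 27.6 and 23.8 to 38.6 and 37.4 CPM, by 0.55 (SE 0.12, limma adjusted p = 0.00131). In SNGM it rose from 41.4 and 33.8 to 74.6 and 63.8 CPM, by 0.87 (SE 0.12, limma adjusted p = 7.50e-05). In HEC265, which on vehicle held the most TRIB3 of the 4 lines, it fell from 114 and 107 to 88.9 and 84.5 CPM, a log2 change of -0.35 (SE 0.12, limma adjusted p = 0.0496). The groups did not overlap in any of the 3 lines. The fall in HEC265 lay just under the threshold and was not called in 22 of 43 other settings, where its adjusted p reached 0.274. In Ishikawa the vehicle libraries were at 66.9 and 64.0 CPM and the SM08502 libraries at 59.1 and 55.7. They did not overlap either, but the difference of -0.19 (limma adjusted p = 0.308) was not called.

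PPP1R15A, on chromosome 19 at 48872421 to 48876058, encodes GADD34, the phosphatase subunit that restores translation by removing phosphate from eIF2alpha. On vehicle it was lowest in Ishikawa-S33Y, at 24.7 and 23.7 CPM, and held 32.4 and 37.7 in SNGM. It did not pass the test with SM08502 in any line, with log2 differences from -0.03 in Ishikawa to 0.37 in Ishikawa-S33Y. With SM08502 it was above both vehicle libraries in Ishikawa-S33Y, SNGM and HEC265. Its Ishikawa replicates differed widely, at 39.4 and 26.3 CPM with SM08502 and 29.2 and 37.0 on vehicle. With both drugs it held 49.6 and 52.5 CPM in HEC265 against 36.7 and 38.5 on vehicle. Those libraries did not overlap, but the difference of 0.43 (limma adjusted p = 0.127) was not called. SESN2, on chromosome 1 at 28259518 to 28282491, encodes sestrin 2, a leucine sensor that restrains mTORC1. It rose with SM08502 in SNGM, from 32.9 and 32.7 to 56.2 and 45.8 CPM, by 0.61 (SE 0.18, limma adjusted p = 0.0400). That call was lost in 20 of 43 other settings, with an adjusted p of up to 0.344. Its vehicle libraries held 20.9 and 19.3 CPM in Ishikawa-S33Y, the lowest of the lines, against 23.2 and 23.2 with SM08502, without overlap and with a difference of 0.20 (limma adjusted p = 0.449). In Ishikawa it was at 35.1 and 39.2 CPM on vehicle and 36.0 and 22.1 with SM08502, a wide spread within the pair, and the difference was -0.38 (limma adjusted p = 0.167). Without the first of those SM08502 libraries it was called there as a fall, at -0.72. In HEC265 SESN2 stood at 53.6 and 49.0 CPM on vehicle and 53.5 and 52.0 with SM08502.

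ASNS, on chromosome 7 at 97851677 to 97928441, encodes asparagine synthetase and is a textbook ATF4 target. On vehicle it was lowest in Ishikawa-S33Y at 36.4 and 36.8 CPM, then SNGM at 82.0 and 73.1, Ishikawa at 123 and 108 and HEC265 at 170.3 and 178. Every neighbouring pair in this order was called different, by 1.06, 0.57 and 0.59 on the log2 scale. With SM08502 it rose to 199.6 and 161 CPM in SNGM, by 1.20 (SE 0.11, limma adjusted p = 5.57e-07), a fold of 2.30. In Ishikawa-S33Y it rose to 68.4 and 67.1 CPM, by 0.87 (SE 0.11, limma adjusted p = 6.75e-06). In HEC265 it fell to 119 and 125 CPM, a log2 change of -0.51 (SE 0.11, limma adjusted p = 0.00256). In all 3 lines the SM08502 libraries were clear of the vehicle libraries, and the call held in all 43 other settings. Ishikawa had 119 and 140.2 CPM, overlapping its vehicle libraries, with a difference of 0.16 (limma adjusted p = 0.335). ASNS has pseudogenes, as do ATF4 and PSAT1, and how reads shared with them were counted is not given in the sources used here.

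PHGDH and PSAT1 catalyse the first and second steps of serine synthesis from a glycolytic intermediate. PSAT1, on chromosome 9 at 78297125 to 78330093, rose in SNGM from 296 and 246 to 521 and 467 CPM, by 0.87 (SE 0.11, limma adjusted p = 5.33e-05). In HEC265 it fell from 458 and 463 to 329.9 and 325 CPM, a log2 change of -0.49 (SE 0.11, limma adjusted p = 0.00506). Neither pair of groups overlapped. Without replicate 2 of SM08502 in HEC265 the adjusted p was 0.0511. In Ishikawa-S33Y the SM08502 libraries, at 309.9 and 313 CPM, were above the vehicle libraries at 261 and 262, but the difference of 0.25 (limma adjusted p = 0.103) was not called. Ishikawa had 266 and 257 CPM on vehicle and 208 and 252 with SM08502, without overlap, and the difference was -0.19 (limma adjusted p = 0.280). PHGDH, on chromosome 1 at 119711934 to 119744215, was very unequal among lines on vehicle, at 9.87 and 8.41 CPM in SNGM and 107 and 113 in HEC265, 3.45 apart on the log2 scale (limma adjusted p = 2.58e-13). Ishikawa, at 58.9 and 57.9 CPM, and Ishikawa-S33Y, at 48.2 and 50.2, lay between and were not called different from each other. With SM08502 the Ishikawa libraries held 54.8 and 49.7 CPM, below both vehicle libraries, but the difference of -0.16 (limma adjusted p = 0.601) was not called. With SM08502 it rose in Ishikawa-S33Y to 80.1 and 79.5 CPM, by 0.69 (SE 0.18, limma adjusted p = 0.00601), and in SNGM to 15.9 and 14.5 CPM, by 0.68 (SE 0.18, limma adjusted p = 0.0196). The SNGM rise was not called in the fit on that line alone, without replicate 2 of the vehicle or without either SM08502 library. In HEC265 it was at 78.7 and 77.9 CPM, below both vehicle libraries, with a difference of -0.48 (limma adjusted p = 0.0753) that missed the threshold and was called as a fall in 11 of 43 other settings.

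CHAC1, on chromosome 15 at 40953471 to 40956512, degrades glutathione and is induced by ATF4 and CHOP. In SNGM it showed the greatest log2 rise of the 10 genes in any SM08502 comparison, from 8.30 and 5.39 to 27.6 and 21.2 CPM, by 1.71 (SE 0.19, limma adjusted p = 7.56e-06). In Ishikawa-S33Y it rose from 8.58 and 6.96 to 11.0 and 12.5 CPM, by 0.54 (SE 0.19, limma adjusted p = 0.0316). That second call was lost in 5 of 43 settings, which were TMM scaling, no filter on low values and leaving out either SM08502 library or replicate 2 of the vehicle. In Ishikawa the vehicle libraries held 14.1 and 14.7 CPM and the SM08502 libraries 17.5 and 14.5, which overlapped. HEC265 held 12.9 and 15.1 CPM with SM08502, overlapping 15.2 and 12.9 on vehicle, and 9.85 and 9.36 with the combination, below all other libraries of the line. The combination difference there was -0.50 (limma adjusted p = 0.0615). SLC7A11, on chromosome 4 at 138164097 to 138242349, is the cystine carrier of the xCT transporter and a target of both ATF4 and NRF2. It overlaps SLC7A11-AS1, from which reads could not be told apart if counting ignored strand. In SNGM, where it started lowest, it rose from 71.4 and 63.9 to 181 and 181 CPM, by 1.41 (SE 0.13, limma adjusted p = 7.73e-07). HEC265 started highest, at 768 and 731 CPM, and held 947 and 901 with SM08502, a difference of 0.30 (limma adjusted p = 0.135) in the other direction from ASNS and PSAT1. In Ishikawa it was at 301 and 332 CPM on vehicle and 251 and 247 with SM08502, without overlap and with a difference of -0.34 (limma adjusted p = 0.0761). The Ishikawa difference was called as a fall in 6 of 43 settings: TMM scaling, without the 2 shallow libraries, without either Ishikawa paclitaxel library and without either combination library of Ishikawa-S33Y. In Ishikawa-S33Y the values were 250.1 and 239 against 239 and 245 CPM.

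**Figure D2:**
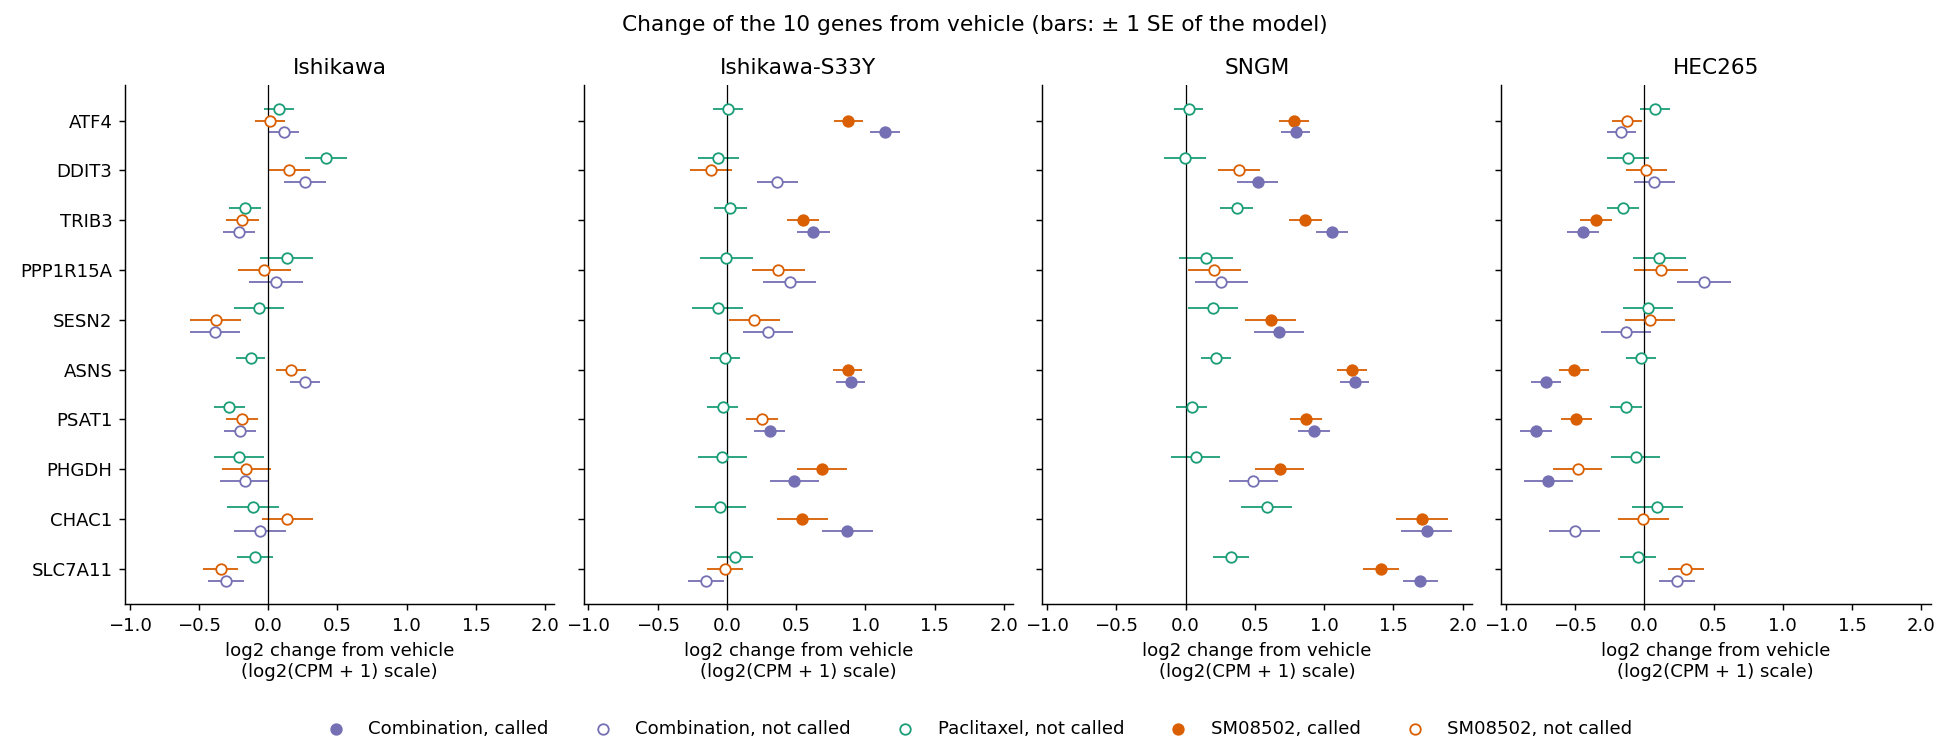
Log2 change from vehicle, on the log2(CPM + 1) scale, of each gene with paclitaxel, SM08502 and the combination in the 4 lines; bars are 1 standard error of the limma model to each side, filled points were called at an adjusted p under 0.05 and open points were not. The SM08502 and combination points lie to the right of 0 for most genes in SNGM, reaching 1.71 and 1.74 for CHAC1, and to the left of 0 for ASNS, TRIB3, PSAT1 and PHGDH in HEC265, and no paclitaxel point is filled.

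The lines differed in the 10 genes before any drug was given. On vehicle, 6 of 10 were lower in Ishikawa-S33Y than in Ishikawa and none was higher, against 28.2% of all genes called lower. Those 6 were DDIT3, ASNS, TRIB3, CHAC1, SESN2 and SLC7A11, and the largest gap was that of ASNS at -1.63 (limma adjusted p = 1.53e-10). SNGM was lower than Ishikawa for 6 of 10, against 38.8% of all genes, with gaps of -2.55 for PHGDH and -2.21 for SLC7A11. HEC265 was higher than Ishikawa for 7 of 10, against 24.9% of all genes. It was also higher than Ishikawa-S33Y for 9 of 10, against 26.6%, and higher than SNGM for 8 of 10, against 26%. DDIT3 was the gene lower in HEC265 than in Ishikawa, Ishikawa-S33Y and SNGM, where 38.3%, 31.4% and 28.9% of all genes were lower. Between SNGM and Ishikawa-S33Y, 5 were higher in SNGM, against 28.1%, and 2 were lower, against 32.7%. Without either library of the Ishikawa-S33Y vehicle the 5 became 3, without DDIT3 and PPP1R15A. The median of all genes in these comparisons moved with the scaling, for HEC265 over Ishikawa from -0.17 as deposited to 0.10 after quantile normalization.

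The SM08502 effect itself differed between lines for 7 of the 10 genes by limma's moderated F test, against 12.4% of all genes. These were ATF4, ASNS, TRIB3, CHAC1, PSAT1, PHGDH and SLC7A11, with adjusted p from 4.35e-06 for ASNS to 0.00481 for PHGDH. For DDIT3, SESN2 and PPP1R15A the adjusted p was 0.327, 0.0595 and 0.703. Between the derivative and its parent, the effect was larger in Ishikawa-S33Y than in Ishikawa for 3 genes, against 1.83% of all genes: ATF4 by 0.87 (limma adjusted p = 0.00464), ASNS by 0.71 (limma adjusted p = 0.0178) and TRIB3 by 0.74 (limma adjusted p = 0.0215). It was larger in SNGM than in Ishikawa for 7 genes, against 2.08%, all of the 10 except DDIT3, PHGDH and PPP1R15A. SNGM also exceeded Ishikawa-S33Y for 3 genes, against 3.42%: SLC7A11 by 1.42 (limma adjusted p = 9.46e-05), CHAC1 by 1.16 (limma adjusted p = 0.00784) and PSAT1 by 0.62 (limma adjusted p = 0.0186). HEC265 lay below SNGM for 7 genes, against 0.823%, and below Ishikawa-S33Y for 5, against 3.07%. The largest of these gaps in HEC265 against SNGM were -1.71 for CHAC1 and -1.71 for ASNS. Against Ishikawa, HEC265 was lower for ASNS, with a difference of -0.67 (limma adjusted p = 0.0205), the 1 gene called, against 0.888% of all genes. The 3 CTNNB1-mutated lines thus held both the rises and the falls.

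Averaged over the 4 lines with equal weight, SM08502 raised 5 of the 10 genes, against 22.6% of all genes called higher, and lowered none, against 15.8%. They were CHAC1 by 0.60, ASNS by 0.43, ATF4 by 0.39, SLC7A11 by 0.34 and TRIB3 by 0.22. With TMM scaling the TRIB3 rise was not called (limma adjusted p = 0.0838). For each of the 5 genes the F test above found that the lines differed, so the mean describes no single line. The combination raised 7 of 10 on this mean, against 29%, the 5 genes above together with DDIT3 at 0.31 and PPP1R15A at 0.30. With TMM scaling 4 of these 7 were called, without DDIT3, TRIB3 and PPP1R15A.

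With paclitaxel alone, none of the 10 genes was called in any line by limma or by limma voom on recovered read counts. Unadjusted p was under 0.05 for 3 of them in SNGM, 2 in Ishikawa, 0 in HEC265 and 0 in Ishikawa-S33Y. By adjusted p, a stricter cut, few genes of any kind were called with paclitaxel: 0.0176% of those tested in SNGM, 0.0118% in Ishikawa, 0.00588% in HEC265 and 0% in Ishikawa-S33Y. DDIT3 in Ishikawa was at 19.2 and 18.7 CPM with paclitaxel, above both vehicle libraries, with a log2 difference of 0.42 (limma adjusted p = 0.475). CHAC1 in SNGM was at 11.9 and 9.36 CPM, above both vehicle libraries, with a difference of 0.59 (limma adjusted p = 1). TRIB3 in SNGM was at 50.8 and 46.4 CPM, again above vehicle, with a difference of 0.37 (limma adjusted p = 1).

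The combination was compared with the same vehicle libraries as SM08502, so both sets of changes share their controls. It raised 6 of the 10 genes in Ishikawa-S33Y, against 24% of all genes, and 8 in SNGM, against 10.8%. It lowered 4 in HEC265, against 7.16%. In Ishikawa none was called, against 22.8% in either direction and with 3 of 10 at an unadjusted p under 0.05. Without the 2 shallow libraries the counts were 7 higher and 1 lower in Ishikawa-S33Y, 9 higher in SNGM and 5 lower in HEC265. In Ishikawa-S33Y PSAT1 was then no longer among the genes called higher, and DDIT3 and PPP1R15A were. The rise of PSAT1 there, 0.31 (limma adjusted p = 0.0329), was lost in 7 of 43 settings: median re-centring, TMM scaling, without the 2 shallow libraries and without any 1 of the 4 libraries compared. The rise of PHGDH there, 0.49 (limma adjusted p = 0.0317), was lost in 5 of 43: TMM scaling, no filter on low values, and without either vehicle library or replicate 1 of the combination. SESN2 in SNGM was not called with the combination without either vehicle library. The 1 lower gene was SLC7A11, whose 2 combination libraries in Ishikawa-S33Y lay apart, at 184 and 261 CPM, the second being the shallow one. In Ishikawa-S33Y ATF4 had a log2 change of 1.14 (SE 0.11, limma adjusted p = 8.23e-08) with the combination beside 0.88 with SM08502, and CHAC1 0.87 beside 0.54. In SNGM SLC7A11 reached 215 and 228 CPM, a change of 1.70 (SE 0.13, limma adjusted p = 6.47e-08) beside 1.41, and TRIB3 changed by 1.06 beside 0.87. In HEC265 PSAT1 fell to 276 and 259 CPM, a change of -0.78 (SE 0.11, limma adjusted p = 4.93e-05) beside -0.49. ASNS in HEC265 fell to 113 and 99.9 CPM, a change of -0.71 beside -0.51, and PHGDH, which was not called there with SM08502, fell to 72.4 and 63.1 CPM, a log2 change of -0.69 (limma adjusted p = 0.00802). That fall was not called without replicate 2 of the vehicle or of the combination in HEC265, and the fall of TRIB3 there was not called without replicate 1 of either group.

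Compared directly, the combination and SM08502 alone differed for none of the 10 genes in any line, by limma or by limma voom. Unadjusted p was under 0.05 for 2 of them in HEC265, 1 in SNGM, 2 in Ishikawa-S33Y and 0 in Ishikawa. By adjusted p, a stricter cut, 0.00588%, 0.253%, 0.129% and 0% of all genes were called in these lines. Among the 10 genes, DDIT3 in Ishikawa-S33Y had the lowest adjusted p, with a difference of 0.48 (limma adjusted p = 0.165), and quantile normalization called it (adjusted p = 0.0367). PHGDH in SNGM was called lower with the combination than with SM08502, at -0.56, without replicate 1 of the combination, which leaves the shallow library. The departure of the combination from the sum of both single-drug changes was called for none of the 10 genes by limma in any line. Its unadjusted p was under 0.05 for 1 gene in HEC265, 1 in SNGM, 1 in Ishikawa-S33Y and 0 in Ishikawa. By adjusted p, a stricter cut, at most 0.00588% of all genes were called in a line. The combination effect differed between lines for 8 of 10 genes by the F test, against 27.1% of all genes, the 7 named for SM08502 and SESN2. The combination effect was larger in Ishikawa-S33Y than in Ishikawa for 5 genes, against 6.09%, and larger in SNGM than in Ishikawa for 7, against 4.36%. It was larger in SNGM than in Ishikawa-S33Y for 3, against 10.5%. In HEC265 it was smaller than in Ishikawa-S33Y for 6, against 6.86%, and smaller than in SNGM for 7, against 2.38%. HEC265 also lay below Ishikawa for 2 genes, against 1.88%: ASNS at -0.97 (limma adjusted p = 7.88e-04) and PSAT1 at -0.58 (limma adjusted p = 0.0408).

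Across the 16 group means, after the mean of each line was taken out, the 10 genes went together to different degrees. These points share libraries, vehicle groups and depth, so the correlations only describe them. TRIB3 and CHAC1 had a Pearson r of 0.93 and ATF4 and ASNS 0.91, while PSAT1 and PPP1R15A had 0.11. The median r of a gene with the other 9 was 0.90 for ASNS, 0.55 for DDIT3 and 0.43 for PPP1R15A. Outside the 10, the 3 genes most like ATF4 among 10414 were MTHFD2 (r = 0.98), an enzyme of mitochondrial folate metabolism, SRPK2 (0.96), a kinase of splicing factors, and RB1CC1 (0.95), a scaffold of autophagy initiation. Those most like ASNS were GARS (0.97), the glycyl-tRNA synthetase, EIF2S2 (0.94), the beta subunit of eIF2, and STAG2 (0.94), a cohesin subunit. DDIT3 was most like ZNF32 (0.89), MAPRE3 (0.82) and RPAIN (0.81).

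**Figure D3:**
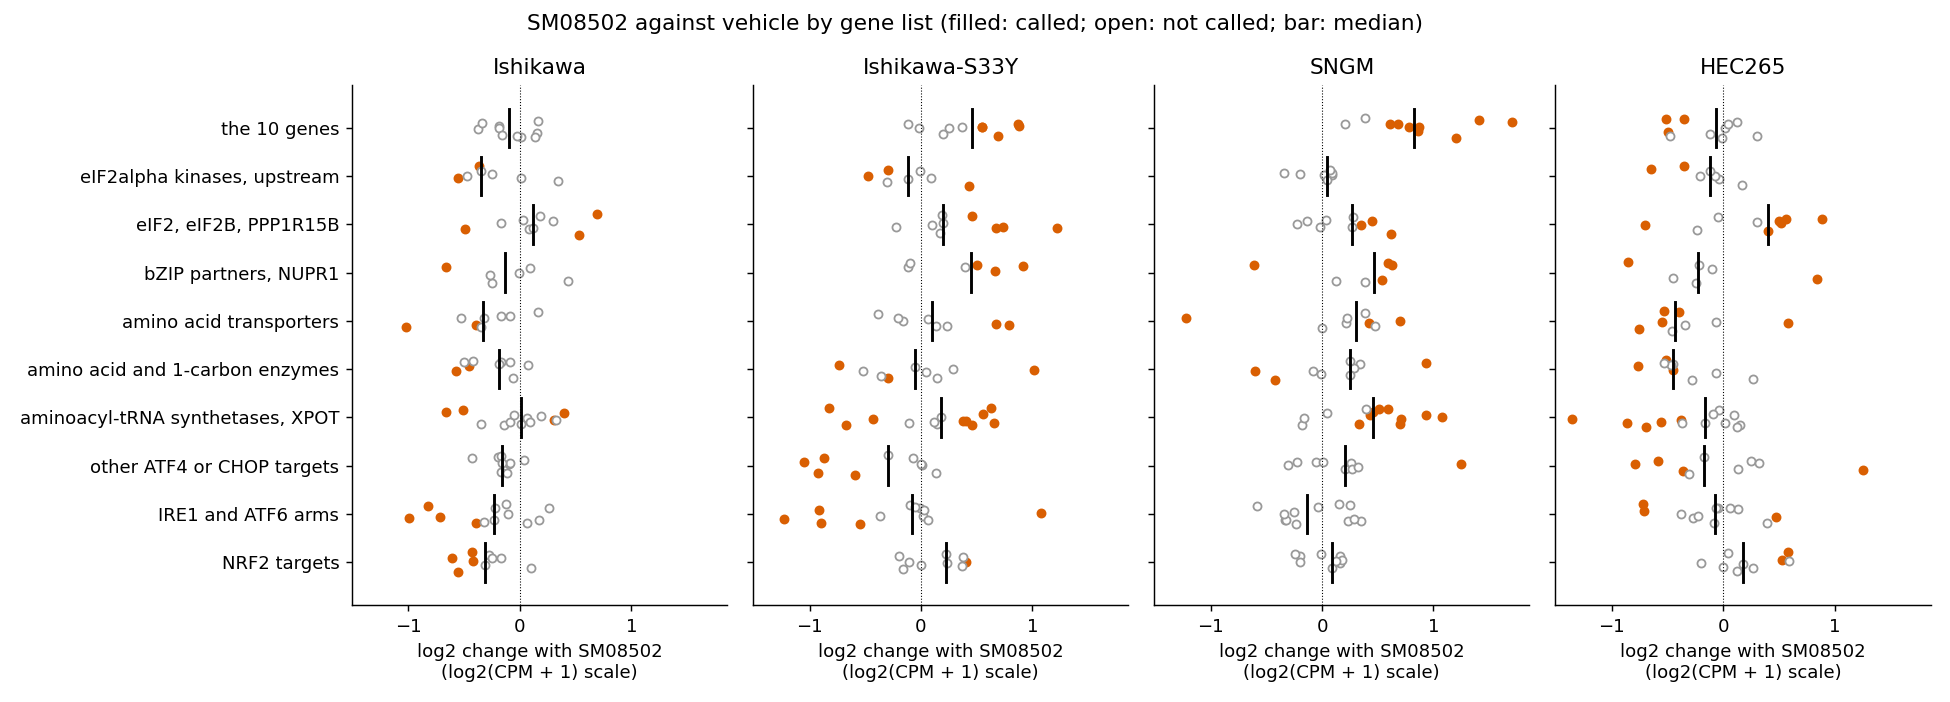
Log2 change with SM08502 against vehicle, on the log2(CPM + 1) scale, for the 10 genes and 9 lists of related genes in the 4 lines; each point is a gene, filled where called at an adjusted p under 0.05, and the vertical bar is the list's median. The aminoacyl-tRNA synthetases lie mostly to the right of 0 in SNGM, with 9 of 13 called higher, against 3.8% of all genes. In HEC265 none is called higher, against 9.27%, and 5 are called lower, against 5.39%.

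The pathway around the 10 genes was read from 9 lists of 83 other genes, 82 of them tested. Of the 82, SM08502 raised 19 and lowered 4 in SNGM, against 3.8% of all genes higher and 4.06% lower. In Ishikawa-S33Y it raised 19 and lowered 15, against 18.5% and 10.6%. It raised 11 and lowered 21 in HEC265, against 9.27% and 5.39%. In Ishikawa it raised 4 and lowered 18, against 6.5% and 8.68%. On the mean over lines it raised 21 and lowered 23, against 22.6% and 15.8%, with a median of 0.00 against 0.05 for all genes. The counts raised in Ishikawa-S33Y, in Ishikawa and on the mean, and lowered in SNGM, were near those shares. The aminoacyl-tRNA synthetases with the tRNA exporter XPOT, which charge and export tRNA and include many ATF4 targets, had 9 of 13 higher and none lower in SNGM, with a median of 0.46. In HEC265 none of the 13 was higher and 5 were lower, with a median of -0.16. Ishikawa-S33Y had 6 higher and 3 lower, and Ishikawa 2 and 2. Averaged over lines, AARS1 rose by 0.53 and SARS1 by 0.44, while IARS1 fell by 0.68 and XPOT fell by 0.53. AARS1 rose by 1.07 in SNGM, and IARS1 fell by 1.35 in HEC265.

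Upstream of ATF4, the mean over lines called 3 of 7 eIF2alpha kinases and adaptors lower and none higher. On this mean 15.8% of all genes were called lower and 22.6% higher. The list median was -0.17 against 0.05 for all genes. EIF2AK1, the haem-sensing kinase, fell by 0.30 and GCN1, the partner of the amino acid-sensing kinase GCN2, fell by 0.30 on that mean. By line, GCN1 was called in HEC265 alone, at -0.65. EIF2AK1 was called at -0.56 in Ishikawa, -0.30 in Ishikawa-S33Y and -0.35 in HEC265. In SNGM they were at 0.09 and 0.02, and none of the 7 was called, near the 3.8% of all genes higher and 4.06% lower. In Ishikawa-S33Y 1 of the 7 was higher and 2 were lower, against 18.5% and 10.6%. Among the 9 genes of eIF2, its exchange factor eIF2B and the phosphatase regulator PPP1R15B, the mean over lines called 6 higher and 1 lower. Their median was 0.26. EIF2B2 rose in each of the 4 lines, by 1.22 in Ishikawa-S33Y, 0.89 in HEC265, 0.70 in Ishikawa and 0.45 in SNGM, with limma adjusted p from 2.01e-08 to 0.00182. EIF2B1 rose by 0.50 on the mean over lines, and EIF2S3 fell by 0.41. In the list of partner transcription regulators, 2 of 6 were higher and 1 lower. ATF3, a stress factor induced by ATF4, rose by 0.47 and CEBPG, a C/EBP partner of ATF4, by 0.27, while ATF5 fell by 0.56. CEBPG was called in Ishikawa-S33Y and SNGM, at 0.50 and 0.60, and ATF3 in Ishikawa-S33Y and HEC265, at 0.66 and 0.84.

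On the mean over lines, MTHFD2 was the called rise among the 9 serine, glycine, one-carbon, proline and transsulfuration enzymes, with 4 lower. Of all genes, 22.6% were higher and 15.8% lower on this mean, and the list median was -0.16. MTHFD2 rose by 1.02 in Ishikawa-S33Y and 0.93 in SNGM, and was at 0.08 in Ishikawa and -0.06 in HEC265, where it was not called. ALDH18A1, which starts proline synthesis, fell by 0.55 and SHMT2, which makes glycine in mitochondria, fell by 0.42 on the mean over lines. SHMT2 fell in all 4 lines, also where PSAT1 and PHGDH rose. Among the 8 amino acid transporters 1 was higher and 1 lower, SLC3A2, the heavy chain that pairs with SLC7A11, at 0.32 and SLC7A6 at -0.58. Of 9 tested other ATF4 or CHOP targets, 2 were higher and 3 lower. GDF15, a secreted stress cytokine, rose by 1.25 in SNGM and 1.25 in HEC265 and was at -0.43 in Ishikawa and 0.01 in Ishikawa-S33Y, where it was not called. VLDLR and VEGFA were called lower on the mean over lines, at -0.50 and -0.43, and SQSTM1 was called higher, at 0.16.

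Beside the eIF2alpha branch, the unfolded protein response has the IRE1 and ATF6 arms. Of 12 IRE1 and ATF6 arm genes, 2 were higher and 5 lower on the mean over lines, with a median of -0.07. On that mean 22.6% of all genes were higher and 15.8% lower. CRELD2 and HSP90B1, which assist folding in the endoplasmic reticulum, fell by 0.82 and fell by 0.73, while ATF6 rose by 0.54 and HERPUD1 by 0.14. In SNGM, where 3.8% of all genes were called higher and 4.06% lower, none of these 12 was called by limma with SM08502, and 5 had an unadjusted p under 0.05. With the combination in SNGM, 3 of the 12 were higher, against 10.8% of all genes. Another 1 was lower, for which the share of all genes is not given here. Among 9 NRF2 targets, the antioxidant programme that also drives SLC7A11, 1 was higher and 2 lower, GCLC at 0.21, GCLM at -0.25 and TXNRD1 at -0.24. In SNGM none of the 9 was called by limma with SM08502, a count near the share of all genes called there, and 1 had an unadjusted p under 0.05.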

How the data were processed

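RNA was measured by sequencing of ribosome-depleted libraries, 2 for each of 16 groups. The authors deposited a table of log10(CPM + 1), per the file headers, for 35238 genes and 32 libraries. The submitters' processing notes name bcl2fastq, kallisto, STAR and the build GRCh38 without their roles; the counting program, the annotation and the use of strand are not given in the sources used here. Back-transformed values summed to 1000000 CPM in each library, and every value was a whole number of reads within 0.05, which gave the depths.

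Values were put on the log2(CPM + 1) scale, with a pseudocount of 1. Genes above 1 CPM in at least 2 libraries were kept. limma 3.58.1 in R 4.3.3 fitted 16 group means to all 32 libraries with an intensity trend, and p-values were adjusted over 17011 genes and called under 0.05. Differences between lines were tested with interaction contrasts and moderated F tests over 3 contrasts. Data were simulated for SM08502 against vehicle in HEC265, with 200 changed among 16715 tested genes. Counts were drawn with the same fixed dispersion for every gene and no treatment effect in any other group. On these data the fit recovered 99% of 2-fold and 36% of 1.5-fold changes and made 1 false call. In the measured libraries of that comparison, 1577 genes were called higher and 917 lower. Between measured replicates, the chi-square per degree of freedom ran from 2.38 to 96.5. The recovery and false-call rates depend on the simulated settings, and whether they hold for the measured libraries was not tested.

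The 10 genes and the lists were chosen with earlier results of these data known. Named genes were all 10, up to 2 called rises and 2 called falls in each list by the mean over lines with SM08502, and the 3 genes most like ATF4, DDIT3 and ASNS over group means, among genes with a mean log2(CPM + 1) of at least 3. Alternatives changed the filter, pseudocount, scaling, trend, samples, replicate block and libraries 1 at a time. Genome positions and promoter windows are those of RefSeq on GRCh38.p14. Deposited splicing tables were not used here.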

Additional observations from a re-analysis of the deposited data

Results flagged for a closer look

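The listed genes are those whose response differed between the 4 lines by limma's moderated F test, with p-values adjusted over 17011 genes. For SM08502 against vehicle the adjusted p was 4.35e-06 for ASNS, 2.73e-05 for SLC7A11, 8.87e-05 for PSAT1, 1.36e-04 for TRIB3, 1.75e-04 for ATF4, 7.62e-04 for CHAC1 and 0.00481 for PHGDH. ASNS, TRIB3 and PSAT1 were called higher in 1 or 2 lines and lower in HEC265, while ATF4, CHAC1, PHGDH and SLC7A11 were called higher in 1 or 2 lines and were not called in the others.

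For the combination against the same vehicle libraries the adjusted p was 3.47e-07 for ASNS, 8.81e-07 for SLC7A11, 2.81e-06 for PSAT1, 5.85e-06 for TRIB3, 1.31e-05 for ATF4, 1.97e-05 for CHAC1, 0.00284 for PHGDH and 0.0161 for SESN2. ASNS, TRIB3 and PSAT1 were called higher with it in both Ishikawa-S33Y and SNGM and lower in HEC265. The PSAT1 call in Ishikawa-S33Y was lost in 7 of 43 other settings, with an adjusted p of up to 0.377. Both sets of tests use the same vehicle libraries.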

How the results depend on the processing

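Of 12860 values of the 10 genes under other settings, 12661 kept their direction and their side of the threshold, 105 lost a call, 94 gained one and none of the called values changed sign, while 224 uncalled values did. Many settings left out a library outside the compared groups, which hardly touches the change itself. The total also holds paclitaxel and additivity comparisons, where few genes of any kind were called. It is therefore no measure of how firm a given call is. TMM scaling and leaving out the 2 shallow libraries each gave 1 gene lower, SLC7A11, in Ishikawa with SM08502, in Ishikawa with the combination and in Ishikawa-S33Y with the combination, against 0 as reported. TMM scaling also left 4 genes higher in place of 7 for the combination averaged over lines. Quantile normalization gave 1 gene higher in HEC265 with SM08502, 1 with the combination, 1 higher in Ishikawa-S33Y between combination and SM08502, and 0 lower in HEC265 against Ishikawa-S33Y on vehicle. Without the 2 shallow libraries 1 gene was higher in HEC265 with SM08502. A fit on each line alone left 2 genes higher in SNGM with SM08502, gave 1 higher and 5 lower in HEC265 with SM08502, and 2 higher in HEC265 with the combination. In these cases the cause was not tested, and the share of all genes called is not given here. Leaving out 1 library gave 0 to 1 lower for SM08502 in Ishikawa, 1 to 4 lower for SM08502 in HEC265, 0 to 1 lower for the combination in Ishikawa and in Ishikawa-S33Y, 0 to 1 lower in SNGM both for combination against SM08502 and for the departure from additivity, and 3 to 5 higher for SNGM against Ishikawa-S33Y on vehicle; a lone library was assumed to vary like the other groups. With a replicate block, SM08502 called 5 genes higher in Ishikawa-S33Y and 8 in SNGM and 4 lower in HEC265, the combination 9 higher in SNGM and 5 lower in HEC265, and no count moved by more than 1.5 times. Replicate numbers gave no pairing with a constant sign. Over 6 pairs of groups, deviations of same-numbered libraries correlated from -0.33 to 0.70 in Ishikawa and from -0.45 to 0.43 in SNGM. In Ishikawa-S33Y the range was -0.05 to 0.03, and in HEC265 -0.06 to 0.08. Deviations were thus partly shared between groups, with either sign, in Ishikawa and SNGM, where the fit took libraries as independent. The voom fit on recovered reads was chosen after seeing the data, and 2 planned count-based tests were not run because the deposited unit is a log10 value. Low genes are limited by depth, as for DDIT3 in HEC265 at 35 to 47 reads. In the shallow SNGM library PHGDH held 16 reads and DDIT3 18. DDIT3 held 23 reads in the shallow Ishikawa-S33Y library.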
